A study of Rattus norvegicus with 40 samples.

Results

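Hippocampal slices of 4 young rats were compared after 1 Hz repetitive transcranial magnetic stimulation (rTMS) and after sham stimulation. The comparison rests on 8 of the 40 arrays of the series, a sham array and a 1 Hz array for each rat, and repeat hybridisations were not used. The animals were male Long-Evans rats of 5 to 6 months, and each hippocampus was chopped into slices about 1 mm thick that were dealt out serially to a sham dish, a 1 Hz dish and a dish for intermittent theta burst stimulation (iTBS). Stimulated slices lay 1 cm below the coil at 15% of the stimulator's maximum output, whereas sham slices lay 20 cm from it. Both arrays of a rat therefore hold other slices of the same animal, and a difference in where along the hippocampus the slices came from cannot be told apart from stimulation. The protocol gives 2 h of rest before RNA collection, while the sample annotation gives 1 h. The aged rats of the series, memory unimpaired (AU) or memory impaired (AI) in the water maze, were male Long-Evans rats of 25 to 26 months by the sample annotation, where the methods give a slightly lower range, and are used below only where the young difference is set against theirs.

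In rTMS a pulsed magnetic field induces current in the tissue, and low-frequency trains are known mainly for lowering the excitability of the stimulated region. The hippocampal slice keeps the laminar circuit of dentate gyrus, CA3 and CA1 together with interneurons, astrocytes, microglia and the oligodendrocytes that wrap axons in myelin. Myelin is built from a small set of abundant proteins and glycolipids, and oligodendrocyte precursors mature into myelinating cells throughout adult life. In the dissected region, the fimbria and alveus are white matter rich in oligodendrocytes, and ependyma and choroid plexus line the adjoining ventricle.

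Levels are given on a log2 scale on which 0 is the mean of all features on an array, and a difference is the 1 Hz level minus the sham level of the same rat (see the processing summary for the scaling). Levels of different probes cannot be compared with each other. Markers of CA1 (5 of 5 genes), CA2 (6 of 6) and dentate granule cells (4 of 5 on the array) were well above background on all 8 arrays, as were 25 of 25 myelin genes and 17 of 17 astrocyte genes. Of 5 CA3 markers on the array, 3 were. The sham array of rat 2 carried higher levels of major histocompatibility complex (MHC) class II, complement and interferon-response genes than the other young arrays. It was below the other 11 young arrays for some other lists, by smaller margins. Among these were interneuron markers (2.17 against 2.26 to 2.79), synaptic vesicle genes (3.28 against 3.31 to 3.70) and endothelium (1.60 against 1.72 to 2.50). For astrocytes it lay within them (5.37 against 5.109 to 5.775). Its correlation with the other 3 sham arrays was 0.954 to 0.974 over the tested probes. Those 3 correlated at 0.976 to 0.982 with each other. Low correlations were not particular to the sham array of rat 2. The 1 Hz array of that rat correlated at 0.96 to 0.983 with the other 1 Hz arrays, and its iTBS array at 0.932 to 0.978 with the other iTBS arrays. Among the sham and 1 Hz arrays of young rats, the sham array of rat 2 correlated best with the 1 Hz array of the same rat (0.982). It is a suspected wrong sample, so differences below are given with all 4 pairs and with the 3 pairs of rats 1, 3 and 4.

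No probe passed an adjusted p of 0.05 in the paired test. Of 35336 probes tested by limma with the rat as a block, 0 (0%) were called with 4 pairs and 0 (0%) with 3 pairs, and the smallest Benjamini-Hochberg adjusted p was 0.989 and 0.904, respectively. At an unadjusted p under 0.05, 686 probes (1.94%) were higher and 686 (1.94%) lower after 1 Hz with 4 pairs. Without rat 2 these counts were 843 (2.39%) and 1082 (3.06%). The even split depends on the scaling, since centring on the 75th percentile gave 900 higher against 493 lower and background correction with quantile normalisation gave 1211 against 392. The differences of single rats had little in common across probes, with correlations between rats from -0.134 to 0.105, a description of these 8 arrays over probes that are not independent. What follows is therefore a description of named genes and gene lists, and values are given as the mean difference ± SE of the fit with its 95% interval, neither adjusted for the number of probes.

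Myelin genes were higher in the 1 Hz slices. Of the 25 genes measured on the list of myelin and mature oligodendrocytes, 18 were higher and 0 lower at an unadjusted p under 0.05, against 1.94% of all tested probes in each direction. The median difference over the list was 0.50, where the median over all tested probes was 0.001. Per rat the list median was 0.36, 0.05, 0.80 and 0.62 in rats 1 to 4, so rat 2 showed almost no shift of the list as a whole. Without rat 2, 20 of the 25 genes were higher at an unadjusted p under 0.05, where 2.39% of all probes were, and the median was 0.58. The sign was the same in all 4 rats for 14 genes (6.02% of all probes were higher in 4 of 4) and in all of rats 1, 3 and 4 for 24 (12.9% of all probes were higher in 3 of 3). In 6 genes, Mog, Cldn11, Opalin, Ugt8, Fa2h and Tspan2, every 1 Hz array lay above every sham array, as did 111 (0.314%) of all probes. The count of 18 was 10 without rat 1, 7 without rat 3, 7 without rat 4, 9 without the block and 5 when the iTBS arrays joined the fit, while 0 genes were lower and the list median stayed between 0.38 and 0.58 in each of these fits. Bulk RNA of whole slices cannot tell more oligodendrocytes or white matter in a dish apart from more RNA per cell.

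**Figure D1:**
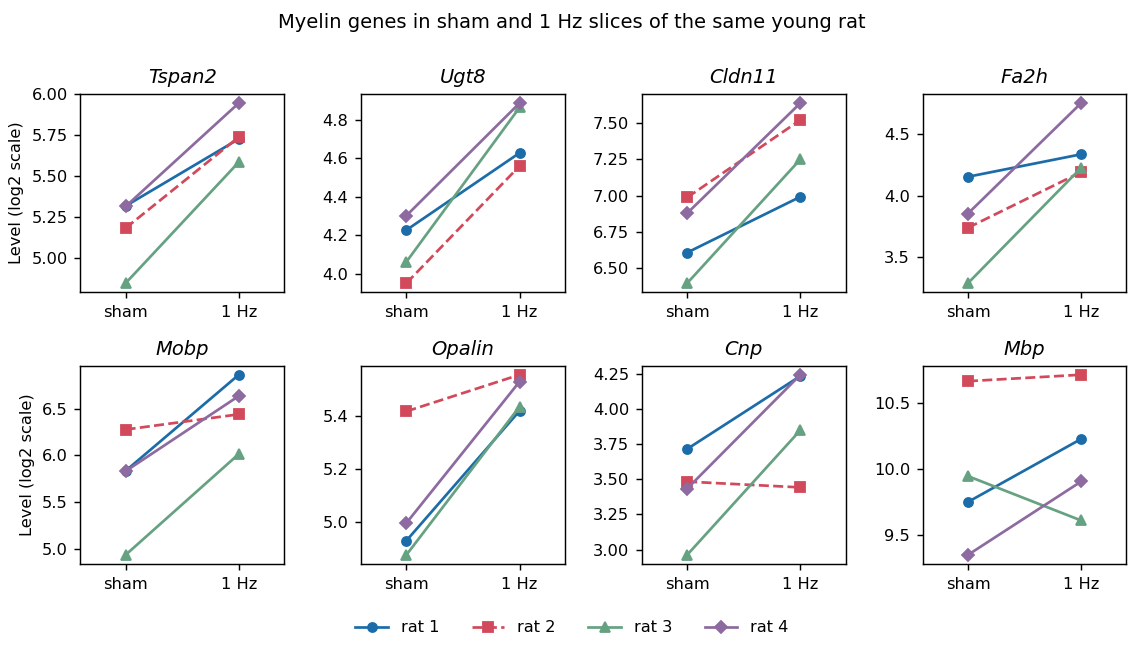
Level of 8 myelin genes (log2 scale, y axis, with its own range for each gene) in sham and 1 Hz slices, where each line joins the sham and the 1 Hz array of 1 rat and the dashed line is rat 2. Tspan2, Ugt8, Cldn11, Fa2h, Mobp and Opalin were higher after 1 Hz in all 4 rats, Cnp in rats 1, 3 and 4, and Mbp was lower in rat 3.

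Several of these genes encode the proteins of the compact sheath and its tight junctions. Tspan2, a tetraspanin of oligodendrocytes, had levels of 5.32, 5.18, 4.85 and 5.32 in the sham slices of rats 1 to 4 and 5.73, 5.74, 5.59 and 5.95 after 1 Hz. The groups did not overlap, and the difference was 0.58 ± 0.12 (SE of the paired fit, 95% interval 0.28 to 0.89). Cldn11, the claudin of the myelin tight junction, was at 6.61, 6.99, 6.40 and 6.88 in sham and at 6.99, 7.52, 7.25 and 7.64 after 1 Hz. Its lowest 1 Hz level, in rat 1, just exceeded the highest sham level, in rat 2, and the difference was 0.63 ± 0.14 (95% interval 0.30 to 0.96), with 0.85 and 0.67 at its other probes. Mog, a glycoprotein of the outer sheath surface, differed by 0.57 ± 0.17 (95% interval 0.16 to 0.98), and Mag, the adhesion protein facing the axon, by 0.53 ± 0.19 (95% interval 0.08 to 0.98). Without rat 2 the mean difference was 0.59 for Tspan2, 0.66 for Cldn11, 0.51 for Mog and 0.68 for Mag, where the 95% interval of Mog included 0.

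Of the list members that act in lipid synthesis, Ugt8 and Fa2h were higher in all 4 rats. Ugt8, which makes galactosylceramide, stood at 4.23, 3.95, 4.06 and 4.30 in sham slices and at 4.63, 4.56, 4.86 and 4.89 after 1 Hz (difference 0.60 ± 0.13). All 1 Hz levels were above all sham levels, and rat 3 had the largest difference, 0.80. Fa2h, the fatty acid hydroxylase of the same lipids, differed by 0.62 ± 0.17 (95% interval 0.19 to 1.04). The list of cholesterol synthesis genes was measured with 21 genes, of which 0 were higher and 0 lower at an unadjusted p under 0.05, and its median difference was 0.04. Leaving out rat 2 gave 0.60 for Ugt8 and 0.67 for Fa2h, and a median of 0.004 for cholesterol synthesis.

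Mobp, a small basic protein of compact myelin, had the largest mean difference on the list. It was at 5.84, 6.28, 4.94 and 5.83 in sham and at 6.86, 6.44, 6.02 and 6.64 after 1 Hz, a difference of 0.77 ± 0.19 (95% interval 0.31 to 1.23). Rats 1, 3 and 4 differed by 1.03, 1.08 and 0.80 and rat 2 by 0.16, and without rat 2 the difference was 0.97 ± 0.14 (95% interval 0.61 to 1.33). Opalin, a membrane glycoprotein of mature oligodendrocytes, was at 4.93, 5.42, 4.87 and 5.00 in sham and at 5.42, 5.56, 5.44 and 5.53 after 1 Hz. The highest sham level, again in rat 2, was just below the lowest 1 Hz level, and the difference was 0.43 ± 0.13 (95% interval 0.11 to 0.76), or 0.53 without rat 2. Cnp, the phosphodiesterase of the uncompacted layers, differed by 0.52, 0.89 and 0.81 in rats 1, 3 and 4 and by -0.04 in rat 2, which gave 0.54 ± 0.19 over 4 rats and 0.74 ± 0.15 without rat 2. Tf, the iron carrier that oligodendrocytes make in quantity, Klk6, an oligodendrocyte serine protease, and Hapln2, a matrix link protein of nodes of Ranvier, had the same pattern, with 0.55, 0.58 and 0.50 over 4 rats, 0.72, 0.83 and 0.72 over rats 1, 3 and 4 and 0.04, -0.16 and -0.16 in rat 2.

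The list also has members without a clear difference. Mbp, a basic protein of compact myelin, was at 9.75, 10.67, 9.95 and 9.35 in sham and at 10.23, 10.72, 9.61 and 9.90 after 1 Hz. It was lower in rat 3 by -0.34, the groups overlapped widely, and the difference was 0.19 (95% interval -0.27 to 0.65), while its other probe gave -0.04. Aspa, the enzyme that splits N-acetylaspartate, differed by 0.24, 0.49 and 0.42 in rats 1, 3 and 4 but by -0.86 in rat 2, 0.07 on average. Leaving out rat 2 gave 0.23 for Mbp and 0.38 for Aspa, where the 95% interval of Mbp included 0. The oligodendrocyte transcription factors Sox10 and Myrf differed by 0.35 ± 0.18 (95% interval -0.08 to 0.78) and 0.30 ± 0.15 (95% interval -0.07 to 0.67), and by 0.53 and 0.41 without rat 2.

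Because many members stood on the same side, the reference sequence before their start sites was searched for the heptamers that make up the DNA motif of SOX proteins, the family of Sox10. The motif searched was AACAAAG, in which the first, the second and the sixth base could each be A or T, which makes 8 forms, on either strand. Windows of 250 bases before the start were available for 18 of the list's genes (19 windows), and 7 windows (36.8%) held at least 1 match, against 7501 of 33469 windows of all genes (22.4%). The genes with a match were Aspa, Cnp, Gjb1, Klk6, Mbp, Mobp and Opalin, so genes with and without a clear difference are among them. A match says only that the letters are there, and it shows neither a binding site nor a cause. Shown are 3 windows from RefSeq on GRCr8, those of the motif-holding members with the smallest p, chosen after the values were seen, 5′ to 3′ on the gene's strand with the matches in capitals. The Mobp window (chr8:128746982-128747231, plus strand) holds 5 matches close together at its far end, the Opalin window (chr1:249858191-249858440, minus strand) 2 and the Cnp window (chr10:86011254-86011503, plus strand) 1.
Mobp: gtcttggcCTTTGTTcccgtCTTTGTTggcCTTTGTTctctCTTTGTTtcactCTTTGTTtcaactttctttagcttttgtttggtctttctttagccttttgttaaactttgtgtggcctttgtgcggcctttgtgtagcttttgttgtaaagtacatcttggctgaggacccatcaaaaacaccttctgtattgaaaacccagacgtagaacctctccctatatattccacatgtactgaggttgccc
Opalin: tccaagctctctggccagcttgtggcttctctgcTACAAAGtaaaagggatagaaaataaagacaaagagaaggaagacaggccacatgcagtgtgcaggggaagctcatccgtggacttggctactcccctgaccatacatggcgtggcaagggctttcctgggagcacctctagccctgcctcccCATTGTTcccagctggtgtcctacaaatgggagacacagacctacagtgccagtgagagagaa
Cnp: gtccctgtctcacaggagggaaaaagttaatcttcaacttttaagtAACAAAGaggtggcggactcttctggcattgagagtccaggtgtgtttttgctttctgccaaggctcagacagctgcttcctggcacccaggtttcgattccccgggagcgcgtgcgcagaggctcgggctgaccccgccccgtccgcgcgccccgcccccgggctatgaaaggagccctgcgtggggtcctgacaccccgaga

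Genes of oligodendrocyte precursors were higher by a smaller amount and more evenly across rats. Of 11 genes measured, 4 were higher and 0 lower at an unadjusted p under 0.05, against 1.94% of all probes in each direction, and the list median was 0.31, with 0.26, 0.35, 0.26 and 0.26 in rats 1 to 4. Here rat 2 lay near the others, and without it the median was 0.25 and 2 genes were higher, against 2.39% of all probes. Bcas1, which marks cells passing from precursor to early myelinating oligodendrocyte, was at 4.91, 4.62, 4.61 and 5.23 in sham and at 5.82, 5.18, 5.53 and 5.49 after 1 Hz. The difference was 0.66 ± 0.16 (95% interval 0.27 to 1.06), larger in rats 1 and 3 than in rat 4, whose sham level overlapped the 1 Hz group. The others under 0.05 were Neu4, a sialidase of precursors (0.37 ± 0.12), the transcription factor Olig1 (0.33 ± 0.12) and the matrix proteoglycan Vcan (0.35 ± 0.14). Olig2, the partner of Olig1, was at 3.50, 3.26, 3.62 and 3.32 in sham and at 3.76, 3.81, 3.66 and 3.70 after 1 Hz. Its groups did not overlap, although the difference in rat 3 was only 0.04 and the 95% interval of the mean, -0.03 to 0.64, included 0. Enpp2, a secreted lysophospholipase made by oligodendrocytes and choroid plexus, is not on the precursor list but on that of choroid plexus. It differed by 0.52 ± 0.15 (95% interval 0.14 to 0.90), with no overlap. Over rats 1, 3 and 4 alone the mean difference was 0.70 for Bcas1, 0.37 for Neu4, 0.34 for Olig1, 0.25 for Vcan, 0.23 for Olig2 and 0.47 for Enpp2, where the 95% interval of Olig1, Vcan and Olig2 included 0.

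**Figure D2:**
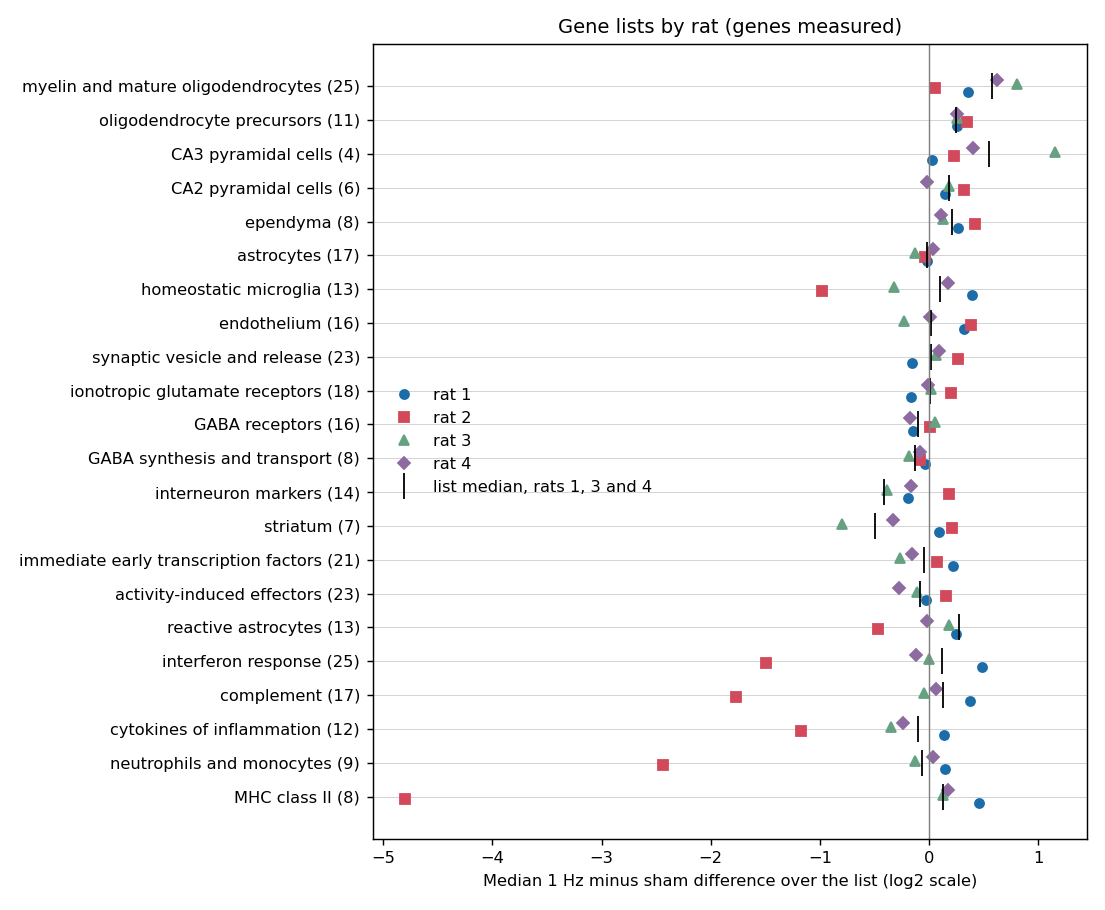
Median 1 Hz minus sham difference (log2 scale, x axis) over the measured genes of 22 lists, 1 point for each rat and a vertical bar for the median without rat 2, with the number of genes in parentheses. The myelin list sits at 0.36, 0.80 and 0.62 in rats 1, 3 and 4, and the immune lists at the bottom are far below 0 in rat 2 alone, down to -4.80 for MHC class II.

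The same genes gave other values in the aged rats and after iTBS. The median difference of the myelin list after 1 Hz was 0.06 in AU rats, with -0.45, 0.62, 0.03 and -0.08 in the single rats, and 0.08 in AI rats, with -0.35, -0.03, 0.19 and 0.62. Single rats of each age group therefore reached the young values, and others lay on the opposite side of 0. In the test of the difference between young and aged rats, 0 of 35336 probes (0%) were called for AU and 0 (0%) for AI, with smallest adjusted p-values of 1 and 0.978. Leaving out young rat 2 also gave 0 calls in both. Of the 25 myelin genes, 1 had a larger difference in young than in AU rats at an unadjusted p under 0.05. Against AI rats 2 did. Bcas1, of the precursor list, differed by -0.36 in AU and -0.24 in AI rats, and it had an unadjusted p under 0.05 for young against AU and for young against AI. Probes with a larger difference in young rats at an unadjusted p under 0.05 made up 0.923% for AU and 0.846% for AI. After iTBS, which shares its sham arrays with 1 Hz and is not independent of it, the list median was 0.45, -0.79, 0.74 and -0.12 in young rats 1 to 4.

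Dynlrb2 and Cfap100, both ciliary genes, were higher in all 4 rats, and by more over rats 1, 3 and 4 than in rat 2. Tmem212, a transmembrane protein of ciliated ependymal cells, was at -4.88, -0.70, -5.43 and -3.80 in sham and at -2.39, -0.22, -1.16 and -0.80 after 1 Hz. It was well above background on 1 of the 4 sham arrays, that of rat 2, and on all 4 1 Hz arrays, so that most of its sham levels are no measured values and it passed the filter through the 1 Hz arrays. In rat 2, whose sham array measured it, it differed by 0.49. Without rat 2 it was at least 6.06-fold higher, a bound that sets the mean 1 Hz level against the higher of each sham array\'s dimmest detected signal and the probe\'s own. Dynlrb2, a light chain of dynein, was at -3.01, -0.29, -2.86 and -3.19 in sham and at -1.38, 0.10, -0.63 and -0.44 after 1 Hz. Rat 2 was high in both dishes and the other sham arrays were low, so the groups overlapped, and the difference was 1.75 ± 0.38 (95% interval 0.82 to 2.69) with 4 pairs and 2.21 ± 0.25 (95% interval 1.56 to 2.85) without rat 2. Cfap100, a protein of the ciliary axoneme, followed with 1.03 ± 0.20, and with 1.10, 0.45, 1.53 and 1.02 in the single rats. Without rat 2 it was 1.22 ± 0.16. Under background correction with quantile normalisation, which compresses dim probes, the differences of Dynlrb2 and Cfap100 were 0.83 and 0.54.

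The ependymal list as a whole did not share those values. Its median over 8 genes was 0.22 with 4 pairs and 0.21 without rat 2, with 2 genes higher and 0 lower at an unadjusted p under 0.05 with 4 pairs, and 2 higher and 1 lower without rat 2, against 1.94% of all probes in each direction and 2.39% and 3.06%. Tmem212 is among the higher genes although most of its sham levels were below background. Rsph1, a radial spoke protein of motile cilia, differed by -0.36 ± 0.25 (95% interval -0.98 to 0.27), being lower in rats 1, 3 and 4 and higher in rat 2. Without rat 2 it was -0.62 ± 0.20. In AU rats Dynlrb2 and Cfap100 differed the other way, by -0.99 and -0.87, and the test of young against AU gave an unadjusted p under 0.05 for each and an adjusted one for neither. In AI rats they differed by 0.64 and 0.36. Of 13 choroid plexus genes, 1 was higher and 1 lower with 4 pairs, with a median of 0.01, and 2 were higher and 2 lower without rat 2, with a median of 0.08. The higher gene with 4 pairs was Enpp2, already given above. Ttr, the thyroxine carrier that choroid plexus secretes, differed by 0.55, -0.08, 0.87 and 3.40, and Folr1, its folate receptor, by 1.33, -0.28, 2.08 and 0.59, which for Folr1 was 1.33 ± 0.31 (95% interval 0.52 to 2.15) without rat 2.

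Neuronal genes gave a mixed picture. Markers of CA3 pyramidal cells had a median difference of 0.50 over 4 genes, of which Bok, a member of the BCL2 family enriched in CA3, was higher in all 4 rats (0.53 ± 0.16, 95% interval 0.13 to 0.93), but the list median of the single rats ran from 0.03 in rat 1 to 1.15 in rat 3, and over the other rats without rat 3 it was 0.27. Of 6 CA2 genes, Rgs14, the signalling regulator that defines CA2, differed by 0.39 ± 0.15 (95% interval 0.03 to 0.75) and the list median was 0.20. The other fields had no such shift, with a median of 0.01 over 5 CA1 genes and -0.01 over 4 genes of dentate granule cells. Without rat 2 these medians were -0.09 and 0.09. Lists of synaptic vesicle and release genes (23 genes, median 0.07, and 0.02 without rat 2), GABA receptors (16 genes, -0.03 and -0.10) and mitochondrial oxidative phosphorylation (75 genes, 0.07 and -0.001) had 0 genes at an unadjusted p under 0.05 in either direction. The mitochondrial median was 0.32 in rat 2 and -0.15 in rat 3. Among the 36 potassium and HCN channel genes, 1 was higher and 0 lower, a share near the 1.94% of all probes, and without rat 2 1 was higher and 1 lower. The higher gene with 4 pairs was Kcnj3, a subunit of the G-protein-gated inward rectifier (0.57 ± 0.16, 95% interval 0.17 to 0.97). Among 8 metabotropic glutamate receptors 1 was lower in both fits, Grm2, a presynaptic autoreceptor (-0.40 ± 0.12, 95% interval -0.69 to -0.10), with -0.29, -0.52, -0.47 and -0.32 in rats 1 to 4. Chrm3, a muscarinic receptor, was higher in all 4 rats (0.46 ± 0.14, 95% interval 0.13 to 0.80). With 3 pairs the mean difference was 0.65 for Bok, 0.37 for Rgs14, 0.66 for Kcnj3, -0.36 for Grm2 and 0.52 for Chrm3, where the 95% interval of Rgs14 included 0.

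Of 14 interneuron genes, 1 was lower and 0 higher at an unadjusted p under 0.05 with 4 pairs, namely Nos1, against 1.94% of all probes in each direction. Nos1, the neuronal nitric oxide synthase, was at -2.19, -2.01, -0.75 and -1.60 in sham and at -2.85, -3.14, -2.10 and -2.45 after 1 Hz. It was lower in every rat, by -0.66, -1.13, -1.36 and -0.86, although the groups overlapped because rat 3 had higher levels in both dishes. The mean was -1.002 ± 0.16 (95% interval -1.39 to -0.62), or 0.499 of the sham level, and background correction with quantile normalisation gave -0.35. In AU and AI rats Nos1 differed by 0.43 and 0.46, and the test of young against AU and against AI gave an unadjusted p under 0.05 in both, neither past the adjusted threshold. Over the 14 genes the median difference was -0.24 with 4 pairs, -0.41 without rat 2 and -0.07 without rat 3, and it was 0.18 in rat 2 alone, so the size of the value depends on rat 3. The value of rat 2 rests on its sham array, which had a lower mean interneuron level (2.17) than the other 11 young arrays (2.26 to 2.79). Without rat 2, 4 of the genes were lower and 0 higher, where 3.06% of all probes were lower. Beside Nos1 these were Gad1, the main GABA-synthesising enzyme (-0.45 ± 0.13), Reln, the extracellular protein of superficial interneurons (-0.45 ± 0.16), and Vip, a neuropeptide (-0.60 ± 0.14). In rat 2 those 3 genes differed by 0.02, -0.01 and 0.92. Sst, the peptide of dendrite-targeting interneurons, differed by -0.29 ± 0.22 (95% interval -0.82 to 0.25). Without rat 2 the mean difference was -0.96 for Nos1 and -0.41 for Sst, where the 95% interval of Sst included 0.

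Markers of the neighbouring striatum moved partly with the interneuron genes, and their part in that result was not tested. Of 7 striatal genes 3 were lower at an unadjusted p under 0.05 without rat 2, where 3.06% of all probes were, namely Rgs9 (-0.76 ± 0.13), Penk (-0.73 ± 0.22) and Drd1 (-0.50 ± 0.16). With 4 pairs none was, and the list median was -0.27, against -0.495 without rat 2 and -0.10 without rat 3. The list medians of the single rats were 0.09, 0.21, -0.80 and -0.33, so rat 3 was lowest on this list and highest on the CA3 and myelin lists.

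Immediate early genes, which neurons switch on within minutes of strong activity, had no common direction. The median over 21 transcription factors was -0.05. At an unadjusted p under 0.05, 0 were higher and 2 lower with 4 pairs, where 1.94% of all probes were lower. Without rat 2, 1 was lower, where 3.06% of all probes were. Fos was at 3.88, 3.26, 4.56 and 4.16 in sham and at 4.20, 3.70, 4.41 and 4.07 after 1 Hz, a difference of 0.13 (95% interval -0.25 to 0.51). It was higher in rats 1 and 2 and lower in rats 3 and 4. Egr1 differed by 0.44, -0.76, -0.27 and 0.48 (mean -0.03, 95% interval -0.62 to 0.57). The 2 lower genes were Fosl1, a partner of JUN in the AP-1 factor, and Maff, a small MAF factor (-0.65 ± 0.25, 95% interval -1.26 to -0.05). Over rats 1, 3 and 4 alone the mean difference was 0.02 for Fos, 0.22 for Egr1 and -0.58 for Maff, where the 95% interval of Fos, Egr1 and Maff included 0.

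Fosl1 had one of the smallest p-values among lower genes. It was at -0.46, 0.11, 0.85 and 0.61 in sham and at -1.16, -1.02, 0.27 and -0.53 after 1 Hz, a difference of -0.89 ± 0.15 (95% interval -1.27 to -0.51). Each rat was lower after 1 Hz, by -0.70, -1.13, -0.58 and -1.15, and the groups overlapped. In AU and AI rats Fosl1 differed by -0.81 and -0.62, in 7 of the 8 aged rats downward. Of 23 activity-induced effectors, 3 were lower and 0 higher with 4 pairs, where 1.94% of all probes were lower, and 1 was lower without rat 2, where 3.06% were. The 3 genes were Rgs2, a regulator of G-protein signalling (-0.34 ± 0.12), Gadd45b, a stress-induced gene of DNA demethylation (-0.51 ± 0.17), and the kinase Pim1 (-1.33 ± 0.41). Rgs2 was at 4.11, 4.46, 4.30 and 4.18 in sham and at 3.98, 4.03, 3.88 and 3.81 after 1 Hz, with no overlap, as in 115 (0.325%) of all probes on that side. Without rat 2 the mean difference was -0.81 for Fosl1, -0.31 for Rgs2, -0.38 for Gadd45b and -0.90 for Pim1, where the 95% interval of Rgs2 and Gadd45b included 0.

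**Figure D3:**
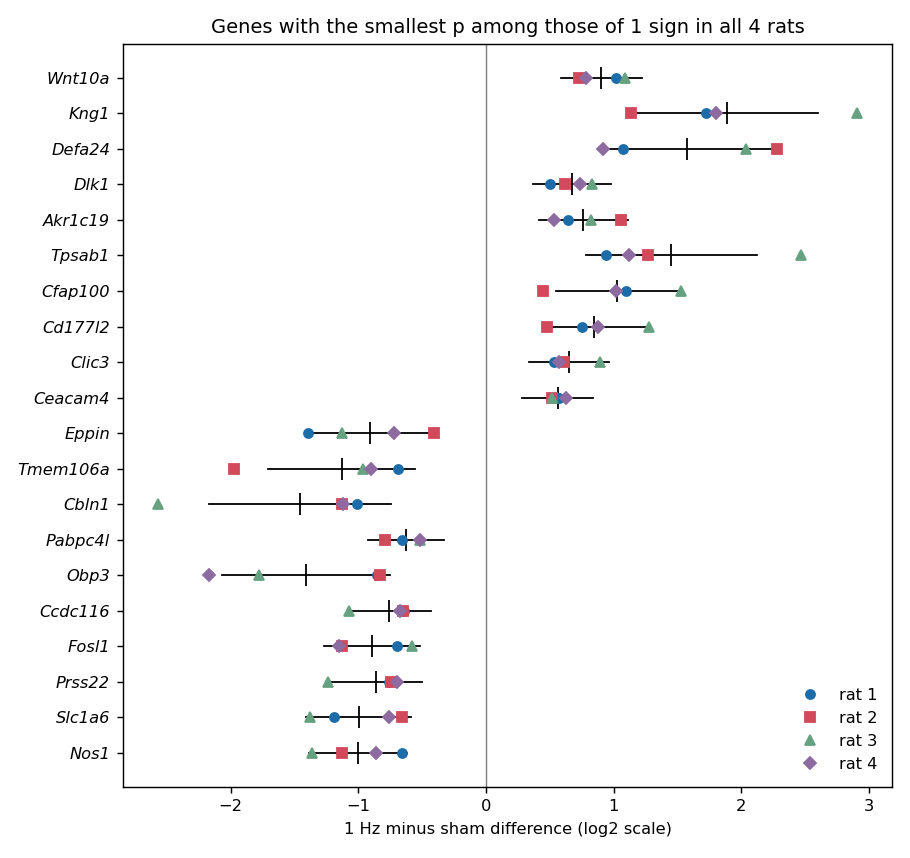
Difference between 1 Hz and sham (log2 scale, x axis) for the 10 higher and the 10 lower genes with the smallest p among genes with 1 sign in all 4 rats, with a point for each rat, a tick for the mean and a line for its 95% interval. The points of Kng1 rest on sham values below background and have no rank. Those of Obp3, Tmem106a and Eppin rest on 1 Hz values below background in rats 1, 3 and 4 and have no rank either. Cbln1 is the lowest of the means at -1.46, and none of the genes passed the adjusted threshold.

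Other single genes differed with 1 sign in all 4 rats. Wnt10a, a secreted WNT ligand, was at -0.21, -0.27, -1.05 and 0.25 in sham and at 0.82, 0.47, 0.04 and 1.03 after 1 Hz, a difference of 0.91 ± 0.13 (95% interval 0.59 to 1.22). It was higher by 0.73 to 1.09 in each rat, and the groups overlapped through rat 3. Kng1, the precursor of bradykinin, was not well above background on any sham array and was on all 4 1 Hz arrays, so by the same kind of bound its probe was at least 2.71-fold higher, and at least 3.09-fold higher without rat 2. It passed the filter only through the 1 Hz arrays, and its place among these genes rests on sham values below background. Other Kng1 probes gave 0.46 and -0.57. Akr1c19, an aldo-keto reductase, differed by 0.76 ± 0.14 with no overlap. Leaving out rat 2 gave 0.96 for Wnt10a and 0.66 for Akr1c19.

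Among lower genes, 2 act at glutamatergic synapses best known from the cerebellum. Cbln1, a synaptic organiser that bridges neurexin and delta glutamate receptors, was at -1.08, -0.27, 1.47 and -0.17 in sham and at -2.09, -1.40, -1.10 and -1.29 after 1 Hz. The groups did not overlap, rat 3 had the highest sham level and the largest difference (-2.57), and the mean was -1.46 ± 0.29 (95% interval -2.17 to -0.75). Slc1a6, the glutamate transporter EAAT4, was at -0.83, -1.65, 0.46 and -0.18 in sham and at -2.02, -2.31, -0.92 and -0.94 after 1 Hz (difference -0.997 ± 0.17). Every rat was lower, by -0.66 to -1.38, with overlap between rats. Tacr3, the neurokinin B receptor, was lower in rats 1, 3 and 4 by -1.24, -2.33 and -1.97 and higher in rat 2 by 0.41, giving -1.85 ± 0.25 (95% interval -2.50 to -1.20) without rat 2. With 3 pairs the mean difference was -1.57 for Cbln1 and -1.11 for Slc1a6. The remaining lower genes chosen by the same rule, Prss22, Ccdc116, Obp3, Pabpc4l, Tmem106a and Eppin, differed by -1.41 to -0.62. Without rat 2, Prss22, Ccdc116 and Pabpc4l differed by -0.90 to -0.57, and Obp3, Tmem106a and Eppin, then not well above background on any 1 Hz array, were at least 1.56-fold, 1.69-fold and 1.62-fold lower. The 4-pair values of Obp3, Tmem106a and Eppin therefore rest on 1 Hz values below background in rats 1, 3 and 4. Those genes passed the filter mainly through the sham arrays. The remaining higher ones, Defa24, Dlk1, Tpsab1, Cd177l2, Clic3 and Ceacam4, differed by 0.56 to 1.58, or 0.57 to 1.51 without rat 2, and Defa24 and Cd177l2 belong to gene families with similar copies.

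Immune genes depended on rat 2. The 10 largest differences of that rat among named genes were all lower after 1 Hz: RT1-Da -9.38, Cd74 -8.26, RT1-Bb -7.62, RT1-Db2 -7.29, C4a -7.21, Fcnb -6.67, C4b -6.65, Plac8 -6.63, RT1-Db1 -6.38 and Ccl12 -6.16. Cd74, the invariant chain of MHC class II, was at -0.60, 9.24, -0.44 and -0.30 in sham and at 0.12, 0.98, -0.29 and 0.08 after 1 Hz, so the sham array of rat 2 alone was high. RT1-Da, an MHC class II alpha chain, was at -3.23, 7.20, -3.01 and -2.82 in sham and at -2.78, -2.18, -3.07 and -3.41 after 1 Hz, again with a single high array. RT1 genes and the C4a and C4b pair have near-identical copies, and probes for them may read more than 1 gene.

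**Figure D4:**
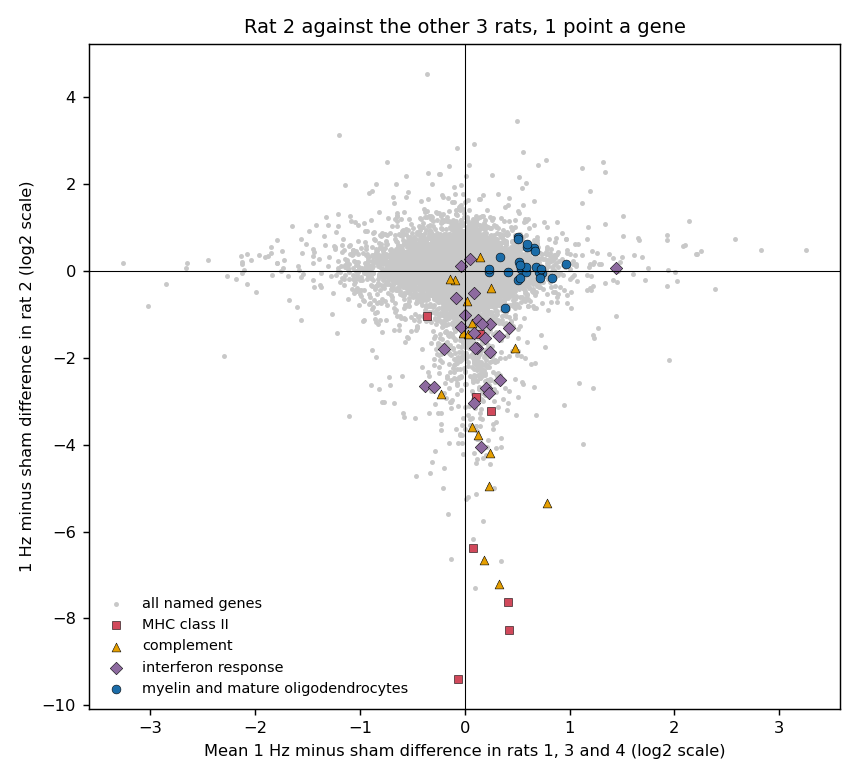
Difference between 1 Hz and sham in rat 2 (log2 scale, y axis) against the mean difference in rats 1, 3 and 4 (x axis), 1 point for each named gene. MHC class II, complement and interferon genes extend down to -9.38 in rat 2 while staying near 0 in the other rats, and most myelin genes lie to the right of 0, while in rat 2 they spread to both sides of 0 around a median of 0.05.

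The list of 8 MHC class II genes had a median of -1.09 with 4 pairs and 0.13 without rat 2, with -4.80 in rat 2 and 0.45, 0.13 and 0.17 in the others. Complement (17 genes) went from -0.37 to 0.13, the interferon response (25 genes) from -0.29 to 0.12, and homeostatic microglia (13 genes) from -0.14 to 0.10. The mean level places the excess in the sham array. It was taken over all members with a probe, 10 for MHC class II, 18 for complement and 11 for neutrophils and monocytes. The mean MHC class II level was 2.96 there, -1.94 to -1.35 on the other 11 young arrays and -1.48 to 3.22 on the 24 aged arrays. On the other young arrays 6 to 9 of the 10 MHC class II genes were well above background, so those means are partly below it. Complement was at 2.97 against 0.11 to 0.92 and 0.56 to 3.43, and neutrophil and monocyte genes were at 0.34 against -1.72 to -1.35 and -1.55 to 0.80. Microglial genes were at 4.13 against 2.83 to 3.38 in young and 3.16 to 4.47 in aged arrays, whereas the myelin list, at 4.38, lay within the other young arrays (3.54 to 4.77). The array thus lay outside the range of young arrays and inside that of aged arrays on each of these immune lists. It was well above the middle of the aged arrays, whose medians were -0.68 for MHC class II and 1.07 for complement. For neutrophil and monocyte genes the aged median was -1.13, and for microglial genes 3.47.

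**Figure D5:**
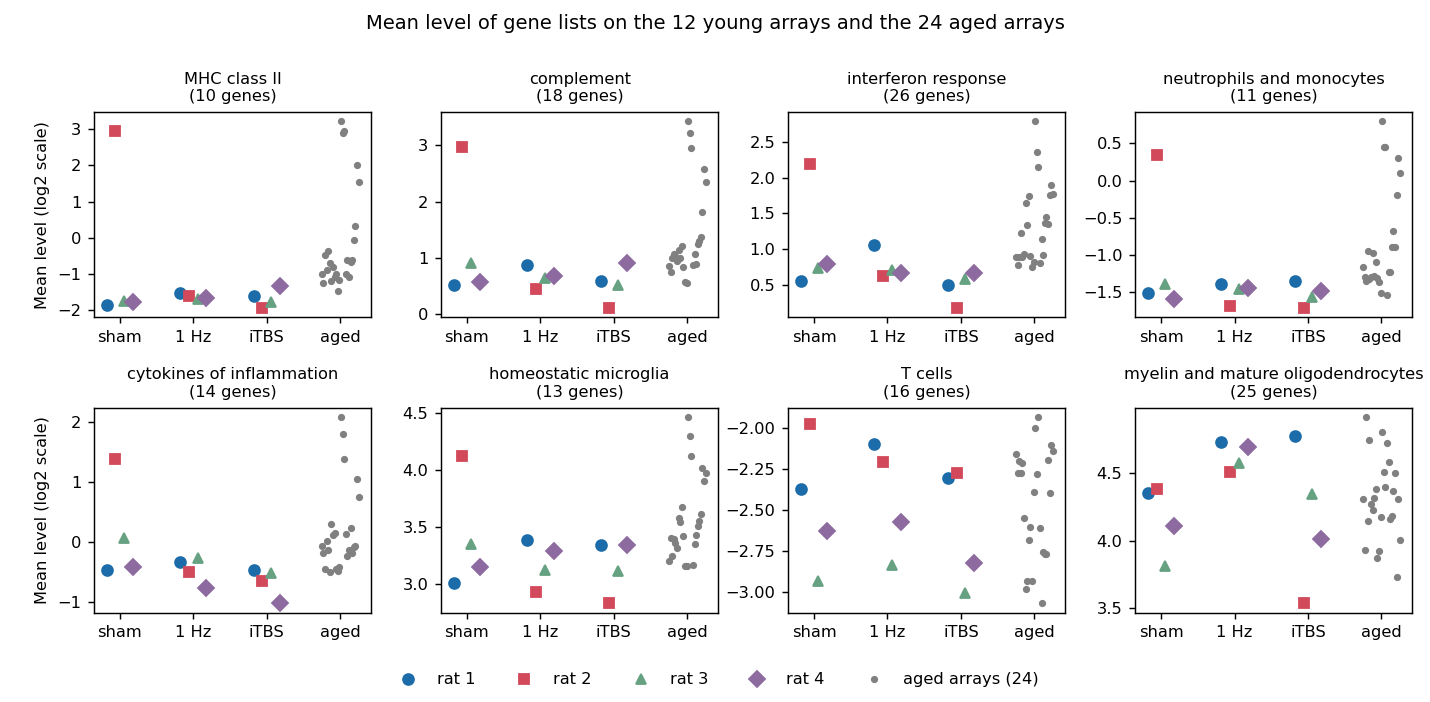
Mean level (log2 scale, y axis) of 8 gene lists on each young array by treatment and on the 24 aged arrays in grey, with markers for rats 1 to 4. The sham array of rat 2 is at 2.96 for MHC class II, above the other young arrays (-1.94 to -1.35). It is near the top of the aged arrays, whose highest level is 3.22, and is not apart on the myelin list.

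Without rat 2, 2 of 17 complement genes were higher and 0 lower at an unadjusted p under 0.05, and 0 of 8 MHC class II and 0 of 25 interferon-response genes differed. Of 9 neutrophil and monocyte genes 1 was higher, of 12 cytokines 1 and of 19 chemokine ligands 2 were lower, where 2.39% of all probes were higher and 3.06% lower. C3, the central complement component, was at 1.25, 1.35 and 1.92 in the sham slices of rats 1, 3 and 4 and at 2.37, 2.01 and 2.48 after 1 Hz, a difference of 0.78 ± 0.17 (95% interval 0.34 to 1.23). With rat 2 the sign turned (mean -0.75, 95% interval -3.47 to 1.97), since that rat's sham level was 7.82. Serping1, the C1 inhibitor, differed by 0.48 ± 0.13 (95% interval 0.13 to 0.82) and Cd44, a hyaluronan receptor of reactive astrocytes, by 0.58 ± 0.14 (95% interval 0.22 to 0.93) without rat 2. Of 13 reactive astrocyte genes, 2 were higher and 1 lower without rat 2. The median of that list was 0.27 without rat 2 and -0.12 with 4 pairs. The myelomonocytic receptor Csf3r was also higher without rat 2, by 0.55 ± 0.16 (95% interval 0.14 to 0.96), while C1qb, the complement subunit made by microglia, differed by 0.07.

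Of 12 cytokines of inflammation, 3 were lower and 0 higher at an unadjusted p under 0.05 with 4 pairs, where 1.94% of all probes were lower. Without rat 2, 1 was lower, where 3.06% of all probes were. The list had a median of -0.53 with 4 pairs, and -0.10 without rat 2, with 0.13, -1.17, -0.35 and -0.23 in the single rats. Tnfsf9, the ligand of 4-1BB, was at 0.44, 2.81, 2.02 and 1.33 in sham and at -0.07, 0.37, 1.33 and 0.35 after 1 Hz, lower in each rat. It differed by -1.15 ± 0.33 (95% interval -1.97 to -0.33) with rat 2 and by -0.72 ± 0.15 (95% interval -1.13 to -0.32) without. Cxcl1, a neutrophil chemokine, differed by -0.67 ± 0.19 (95% interval -1.14 to -0.20) and by -0.46 ± 0.14 (95% interval -0.82 to -0.10), being lower in each rat too. The 19 chemokine ligands as a list had a median of -0.28 with 4 pairs and -0.002 without rat 2. Of the 19 genes, 14 were higher in rat 1 and 11 in rat 4, but only 5 in rat 2 and 5 in rat 3. The list medians of the single rats were 0.14, -0.43, -0.21 and 0.08. Csf3 and Il6, a granulocyte growth factor and an acute-phase cytokine, differed by -0.73 ± 0.22 (95% interval -1.28 to -0.19) and -0.68 ± 0.27 (95% interval -1.33 to -0.02), and without rat 2 by -0.67 ± 0.27 and -0.70 ± 0.34, with intervals that included 0. Il1b, the main secreted interleukin 1, was at 7.01 in the sham slices of rat 2 against 2.29 to 3.57 in the other sham slices, and its difference was -1.53 ± 0.78 with rat 2 and -0.47 ± 0.21 (95% interval -1.03 to 0.10) without.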

How the data were processed

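RNA of the slices was hybridised by the authors to 1-colour Agilent SurePrint G3 Rat GE arrays, and the scanner files hold deposited intensity values per spot, background-subtracted by Agilent's Feature Extraction software. The deposited series table holds a z-score for each feature, made by the authors from log2 intensity within each array. For the present values, the processed signal was log2-transformed, turned into a z-score over the 62976 features of an array, which differed from the deposited score by at most 0.005, and multiplied by 4.158, the mean SD of the 36 primary arrays (3.418 to 4.633), so that differences are on a log2 scale. Scaling every array to 1 SD stretches or shrinks differences of arrays whose own SD is far from that mean.

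Outlier spots were dropped, control features (3951 positive, 308 negative) left out and spots of a probe averaged. Of 45598 probes, 35336 were well above background on at least 4 of the 8 arrays, whatever their group, and were tested. Gene symbols are those of RefSeq, assigned through the accession of each probe where it matched a single gene (21109 probes, 16581 genes). The 6958 probes that carry only an Ensembl accession stayed unnamed. A gene was represented by its probe with the highest mean level, which gave 13939 named genes. Arrays carry no read depth, so the number of rats limits the precision.

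Paired differences were tested with limma 3.58.1 (lmFit and eBayes, two-sided) in R 4.3.3, with the rat as a fixed block and Benjamini-Hochberg adjustment over all tested probes at 0.05. The block follows the sample descriptions, which give both arrays of a number the same rat, and both lay on 1 slide. Deviations from the group mean correlated at 0.399 to 0.547 between both arrays of a rat. Between arrays of different rats they correlated at -0.549 to 0.48, so the ranges overlapped. Young and aged effects were compared in 1 fit over the 24 sham and 1 Hz arrays. The 4 repeat hybridisations were left out. The code was tested on simulated data.

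Gene lists are described by counts and medians, with no test. The comparison, the lists and the genes were chosen with earlier results of these data known. Named genes are the 10 higher and the 10 lower with the smallest p among those with 1 sign in 4 of 4 rats, the 5 higher and the 5 lower likewise without rat 2, the 10 with the largest difference in rat 2, and for each list its members with the smallest p, the highest level and the largest difference. Other list members named in the text, and Cfap100 beside the ependymal list, were chosen after their values were seen. Promoter windows come from RefSeq (GRCr8). Alternatives were no block, a random block, 75th percentile scaling, normexp background correction (on median signals, offset 50) with quantile normalisation, the deposited scores, other filters, more arrays in the fit, array weights, a false discovery rate of 0.3, gene means and leaving out each rat.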

Additional observations from a re-analysis of the deposited data

Results flagged for a closer look

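In 12 of 96 groups of 4 arrays, 1 for each list and treatment, 1 array lay far from the other 3 in its mean list level (log2 scale), where chance alone gives about 1 in 20 groups. Of these, 7 were the sham array of rat 2. It was above the other sham arrays for complement (2.97 against 0.53 to 0.92), chemokine ligands (1.817 against 0.60 to 0.71), MHC class II (2.96 against -1.85 to -1.75), the interferon response (2.195 against 0.56 to 0.79), neutrophils and monocytes (0.341 against -1.59 to -1.39) and ependyma (0.028 against -0.75 to -0.66). It was below them for ionotropic glutamate receptors (1.984 against 2.29 to 2.32).

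The 1 Hz array of rat 2 was far from the others for CA2 pyramidal cells (1.593 against 1.87 to 1.91), thalamus (-0.442 against 0.04 to 0.08) and mitochondrial oxidative phosphorylation (6.383 against 5.90 to 5.98). The 1 Hz array of rat 4 was far for calcium channels (3.028 against 2.85 to 2.88), and the sham array of rat 3 for heat shock and chaperones (5.056 against 4.84 to 4.87).

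In 1 of 96 pairs of a list and an aged group, every young rat differed one way and every aged rat the other. Among 96 pairs, 1 such pair can arise from random signs alone. The median 1 Hz minus sham difference of pericytes and smooth muscle was 0.166 in young rats, with 0.30, 0.31, 0.01 and 0.06 in the single rats, and all 4 AU rats were below 0. Some of these signs rest on values near 0: in young rat 3, 6 of 12 genes were higher, and AU rat 3 was at -0.007. The difference between the age groups was not tested for the list.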

How the results depend on the processing

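No probe passed the adjusted threshold of 0.05 by limma in the fits of 4 pairs, 3 pairs or the age groups, nor under any alternative run or at a false discovery rate of 0.3, while 1372 probes (4 pairs) and 1925 (3 pairs) had an unadjusted p under 0.05. Without the replicate block these counts were 361 and 703, the block changed no adjusted call, and with a random block they were 1541 and 2077. Means of a gene's probes gave 588 and 842 over fewer tested features, and the fit of 36 arrays gave 1212 for 3 pairs. Leaving out each rat gave 986 to 1925 with 4 pairs and 1613 to 1895 with 3. Without rat 2 the split of higher against lower was 843 to 1082, and 984 to 835 with 75th percentile scaling and 1475 to 1012 with normexp and quantile normalisation.

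Of 658 alternative values over 94 genes, 640 kept their direction, and 18 reversed. Leaving out each rat in turn gave these lowest and highest differences for the genes that reversed: Cd74 -2.574 to 0.419, RT1-Bb -2.368 to 0.409, RT1-Db1 -2.161 to 0.077, RT1-Db2 -2.463 to 0.099, C3 -1.375 to 0.782, C4a -2.270 to 0.322, C4b -2.187 to 0.185, C1qb -1.244 to 0.069, Serping1 -0.308 to 0.477, Ccl12 -2.171 to 0.081, Csf3r -0.552 to 0.546, Fcnb -2.063 to 0.347, Egr1 -0.196 to 0.219 and Aspa -0.068 to 0.382. The cause of these reversals was not tested beyond leaving out the rat. Aspa reversed without rat 3 (-0.068) or rat 4 (-0.042) and Egr1 also without rat 3 (0.055). Under normexp and quantile normalisation Ccer1 (0.018) and Serping1 (0.015) reversed, and the cause was not tested. Of 336 alternative list medians, 319 stayed within the spread of rats. Dim probes near background limit what can be said of genes such as Kng1 and Tmem212. Leaving out rat 3 moved the interneuron median from -0.243 to -0.066.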
